A study of Homo sapiens with 6 samples.

Results

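The transcripts described here are 38 genes of the NRF2 pathway, out of 58735 genes counted, measured by RNA sequencing in A549 cells. They were chosen by gene symbol from a list of NRF2 regulators and targets, without the aldehyde dehydrogenase and iron genes of the pathway, and each symbol matched 1 row of the count table. A549 is a human lung adenocarcinoma line, labelled as alveolar epithelial, and all 6 libraries come from this line. PQ cells (3 libraries) received paraquat, a herbicide that takes electrons from NADPH-dependent reductases and passes them to oxygen as superoxide, and PQ+SS-31 cells (3 libraries) received paraquat together with SS-31, a small peptide that reaches mitochondria and attaches to the lipid cardiolipin. Both groups carry the label 48 h, both contain paraquat, and no source used here gives a dose. No library without paraquat was analysed here, so a level in PQ cells cannot be split into a resting level and a response to paraquat.

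NRF2, encoded by NFE2L2, is a transcription factor that the adaptor KEAP1 hands to the ubiquitin ligase CUL3 for degradation. Oxidants and electrophiles modify cysteines of KEAP1, NRF2 then accumulates, pairs with a small MAF protein such as MAFG and binds antioxidant response elements, sites that the repressor BACH1 also occupies. Its targets supply glutathione, thioredoxin and NADPH, reduce quinones and carbonyls, and conjugate and export the products. A549 cells are known for a loss-of-function mutation in KEAP1 that keeps NRF2 active without added stress. Counts per gene carry no bases, so that mutation was not checked here.

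Total counts ranged from 16332061 to 17576827 per library. Nothing in the labels says that replicates were separate cultures, and the p-values therefore reflect the spread among these 6 libraries alone, which may be technical. Of the markers of lung epithelium, KRT7, KRT8 and KRT18 were abundant, while EPCAM stood at 0.443 to 0.814 CPM (TMM-scaled counts relative to the library total). Of the alveolar markers, NKX2-1 and AQP5 had 0 counts in every library, the surfactant genes SFTPC, SFTPB, SFTPA1 and SFTPA2 lay at or below 0.356 CPM, and the lipid transporter ABCA3 stood at 91.6 to 132 CPM. Of the 6 immune markers, CD3E, MS4A1 and LYZ had 0 counts, PTPRC and CD68 reached at most 0.175 CPM, and CD14 was at 4.81, 3.48 and 4.65 CPM with PQ and 6.48, 6.59 and 5.82 CPM with PQ+SS-31, without overlap (edgeR adjusted p = 0.287). Of the fibroblast markers, COL1A1 stood at 9.04 to 19.4 CPM and ACTA2 at 8.55 to 12.7 CPM. The others reached at most 2.08 CPM, in LUM, which was higher with PQ+SS-31 without overlap (edgeR adjusted p = 0.181). Of all tested genes 9.16% were higher without overlap. Endothelial markers lay at or below 0.534 CPM. PQ replicate 3 stood apart, with 884 CPM of the long non-coding RNA NEAT1 against 152 to 437 CPM in the other 5 libraries. The first principal component (39.4% of the variance) of log-scaled CPM set PQ replicate 3, PQ+SS-31 replicate 1 and PQ+SS-31 replicate 3 apart from the remaining 3 libraries.

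In PQ cells most members were among the more abundant transcripts per length. The scale for this comparison between genes was RPKM, which divides CPM by the deposited gene length in kilobases. On it, 9 members lay above 100 RPKM and 32 above 10 RPKM in PQ cells, and averaged over all 6 libraries 23 of the 38 lay above the 90th percentile of the 15550 tested genes. AKR1B1, aldose reductase, led at 597 ± 34.5 RPKM (SD, n = 3). The quinone reductase NQO1 at 275 ± 12.2, the NADPH-producing PGD at 274 ± 10.5, the thioredoxin reductase TXNRD1 at 261 ± 11.1 and the aldo-keto reductase AKR1B10 at 237 ± 34.5 RPKM followed, and neighbours among these 4 differed by less than the sum of their SDs. The regulators were lower, with KEAP1 at 23.5 ± 0.200, MAFG at 21.2 ± 2.43, NFE2L2 at 14.4 ± 1.28 and BACH1 at 8.33 ± 1.91 RPKM. Below the median of tested genes were GSTM3, GPX2, CBR3, GSTM4 and UGT1A6. Without a paraquat-free library, these levels do not test whether NRF2 is active in this line, as described for A549 cells above.

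**Figure D1:**
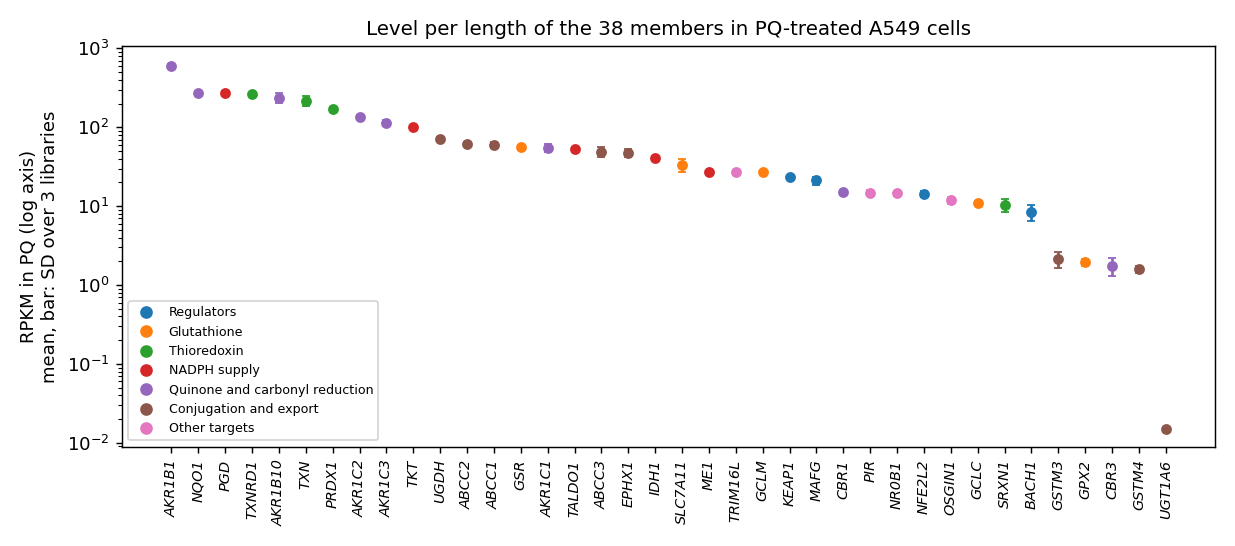
Level per length of each of the 38 members in PQ cells, as the mean RPKM of 3 libraries on a log axis, with bars for the SD and colours for the role of the gene. Levels ran from 597 RPKM for AKR1B1 down to 0.0152 RPKM for UGT1A6, whose SD exceeds its mean and is not drawn.

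Some of these levels are limited by how reads can be assigned to genes. UGT1A6, a glucuronosyltransferase, shares 44.0% of its exon bases with 8 other UGT1A genes of the same strand in GENCODE 29, and only 5 reads were assigned to it in all 6 libraries, so it did not pass the filter on low counts and was not tested. SRXN1 shares 85.0% of its exon bases with AL121758.1, NFE2L2 17.6% with AC019080.1 and OSGIN1 13.9% with AC009119.2, all on the same strand. Of all 75-base stretches of the longest AKR1C2 transcript, 39.5% also occur in AKR1C1, and 30.2% of those of TRIM16L occur in TRIM16. Antisense genes overlap 42.2% of the exon bases of CBR3, 24.9% of those of PRDX1, 18.9% of those of CBR1 and 17.7% of those of NQO1. No source used here says whether counting used strand. Values of these genes are uncertain to that extent.

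Comparing PQ+SS-31 with PQ asked whether the peptide altered NRF2-dependent transcripts in paraquat-treated cells. No member passed the threshold of 0.05 by the quasi-likelihood test of edgeR, adjusted by Benjamini-Hochberg over all 15550 tested genes. The count was 0 of 37 tested members in each direction, where 0.129% of all tested genes were higher and 0.463% lower. At an unadjusted p under 0.05, 6 members were higher and 5 lower, which is 16.2% and 13.5% of the 37, against 5.62% and 5.94% of all tested genes. All 3 libraries of one group lay above all 3 of the other in 10 members that were higher (27.0%) and 6 that were lower (16.2%), against 9.16% and 8.86% of all tested genes. DESeq2 called 2 members higher, GPX2 and AKR1C2, and 2 lower, OSGIN1 and NR0B1, where it called 0.791% and 1.33% of all tested genes. limma-voom called 0.

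Signs of the fitted values differed from role to role and within roles, and the difference between roles was not tested. Log2 fold changes were positive in 26 and negative in 11 of the 37, where 50.1% of all tested genes were positive, with a median of 0.10 beside 0.00018 for all tested genes. All 8 genes of quinone and carbonyl reduction and 4 of 5 genes of NADPH supply had positive values, while the regulators NFE2L2, MAFG and BACH1 and the targets OSGIN1 and NR0B1 had negative ones. GCLC, GCLM, SLC7A11, TXN, TXNRD1 and SRXN1 lay within 0.1 of 0, while PRDX1 of the thioredoxin group stood at 0.19. These signs describe fitted values that did not pass the test. Over all the alternatives the count of positive values ran from 23 to 27. Without PQ+SS-31 replicate 1, CBR1 turned negative (-0.04), and KEAP1, GCLC, SLC7A11, TXN, SRXN1, GSTM3 and ABCC1 each changed sign in at least 1 alternative.

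**Figure D2:**
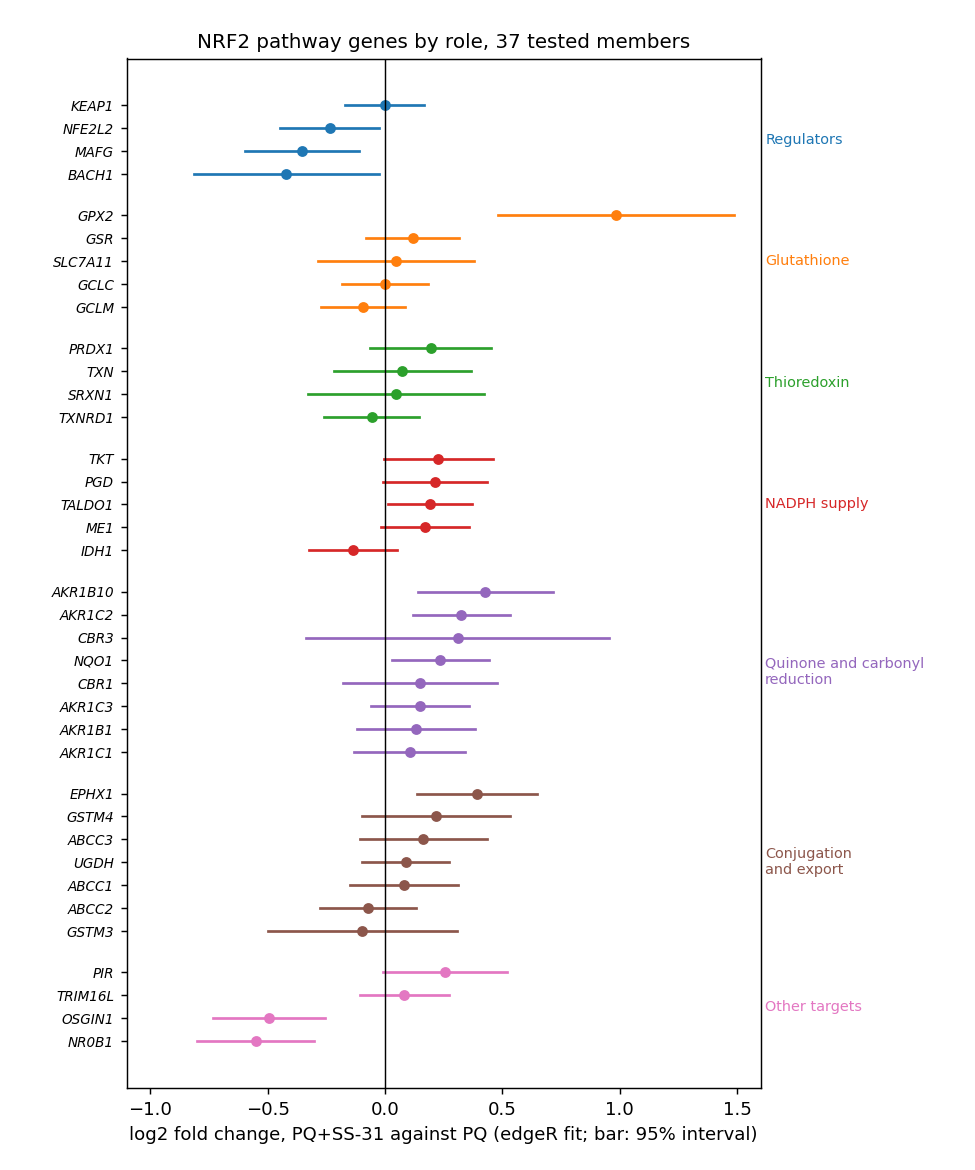
Fitted log2 fold change of each of the 37 tested members, PQ+SS-31 against PQ, with the 95% interval from the edgeR fit, grouped by role. The quinone and carbonyl reduction genes all lie to the right of 0, and NR0B1 and OSGIN1 lie farthest to the left.

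Among the regulators, NFE2L2 itself was counted at 77.7, 88.8 and 92.3 CPM in the PQ libraries, given here and below in the order of replicates 1, 2 and 3. The PQ+SS-31 libraries held 74.4, 69.7 and 75.8 CPM. Every PQ+SS-31 library lay below every PQ library, with a log2 fold change of -0.24 ± 0.093 (SE, edgeR adjusted p = 0.378). MAFG, the small MAF partner of NRF2, stood at 108, 99.0 and 124 CPM with PQ and 94.4, 81.2 and 83.7 CPM with PQ+SS-31, again without overlap (log2 fold change -0.35 ± 0.11, edgeR adjusted p = 0.233). BACH1, the repressor, was at 68.0, 76.8 and 48.1 CPM with PQ and 43.0, 56.6 and 44.5 CPM with PQ+SS-31. Its groups overlapped, because PQ replicate 3 lay at the level of the PQ+SS-31 libraries, and the 3 libraries that the first principal component set apart were the 3 lowest. The log2 fold change of BACH1 was -0.42 ± 0.17 (edgeR adjusted p = 0.402), and without PQ replicate 3 it was -0.60 and passed (edgeR adjusted p = 0.0309, over all alternatives 0.0298 to 0.770). KEAP1, the adaptor, was the most even of the 4, at 88.5, 89.1 and 87.6 CPM with PQ and 88.7, 87.9 and 88.4 CPM with PQ+SS-31. The 95% interval of its log2 difference was -0.17 to 0.17, so differences inside that interval are not excluded. The interval is not adjusted for the number of genes tested and is not the detection limit of the adjusted test. The summed level of the 4 regulators was 349 ± 6.06 CPM with PQ and 296 ± 4.12 CPM with SS-31 added (SD, n = 3), with no overlap between the groups. This sum was not tested.

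NR0B1 and OSGIN1 had the smallest p-values of all members, and both were lower with SS-31. NR0B1, an orphan nuclear receptor also called DAX1, was counted at 31.9, 30.0 and 34.5 CPM with PQ and 24.4, 20.1 and 21.4 CPM with PQ+SS-31 (chromosome X, 30304206 to 30309598, minus strand, GRCh38). The lowest PQ library lay above the highest PQ+SS-31 library, and the mean was 0.683 of the PQ mean (log2 fold change -0.55 ± 0.11, edgeR adjusted p = 0.0803). OSGIN1, an oxidative stress-induced growth inhibitor, was at 43.7, 35.8 and 43.3 CPM and 28.1, 30.3 and 28.7 CPM (chromosome 16, 83948282 to 83966332, plus strand), also without overlap (log2 fold change -0.5 ± 0.11, edgeR adjusted p = 0.0985). DESeq2 gave adjusted p = 0.00616 for NR0B1 and 0.0140 for OSGIN1, in ranges over the alternatives of 0.00534 to 0.349 and 0.0101 to 0.446. Leaving out any 1 library left both log2 fold changes negative, at -0.63 to -0.49 for NR0B1 and -0.58 to -0.44 for OSGIN1, and neither passed in those refits. The other two targets grouped with them here had positive values. PIR, the iron-binding nuclear protein pirin, had a log2 fold change of 0.26 ± 0.12 (edgeR adjusted p = 0.456), and TRIM16L, a TRIM-family gene, 0.083 ± 0.084.

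Quinone and carbonyl reduction held the largest share of the members' counts. AKR1B10, which reduces retinal and lipid aldehydes, was counted at 421, 468 and 349 CPM with PQ and 497, 597 and 572 CPM with PQ+SS-31 (chromosome 7, 134527592 to 134541408, plus strand). Its groups did not overlap, and its mean was 1.34 times the PQ mean (log2 fold change 0.43 ± 0.13, edgeR adjusted p = 0.220). AKR1C2, a hydroxysteroid dehydrogenase that also reduces carbonyls, was at 841, 933 and 858 CPM and 1125, 1113 and 1059.6 CPM, without overlap (log2 fold change 0.33 ± 0.091, edgeR adjusted p = 0.195, DESeq2 adjusted p = 0.0307, over all alternatives 0.0307 to 0.655). Since AKR1C1 and AKR1C2 share sequence, their sum is given as well. Reads exchanged between them do not alter it, but shared reads left out of counting would be missing from it. The sum was 1299.8, 1483 and 1306 CPM with PQ against 1652, 1644 and 1569 CPM with PQ+SS-31. The sum did not overlap between groups either, although AKR1C1 alone did. NQO1, which reduces quinones in a single step that avoids radical intermediates, was at 919, 914 and 848 CPM and 1102, 1042 and 1015 CPM (chromosome 16, 69706996 to 69726951, minus strand). All 3 PQ+SS-31 libraries lay above the PQ libraries (log2 fold change 0.24 ± 0.091, edgeR adjusted p = 0.354). AKR1B1, AKR1C1, AKR1C3, CBR1 and CBR3, other reductases of aldehydes, steroids and ketones, overlapped between groups and had log2 fold changes from 0.1 to 0.31, with CBR3 at a mean of only 2.07 CPM with PQ. Summed over the 8 genes, the level was 5411 ± 94.4 CPM with PQ and 6241 ± 294 CPM with PQ+SS-31, a difference of 830.4 CPM out of 1200.0 CPM over all 38 members.

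**Figure D3:**
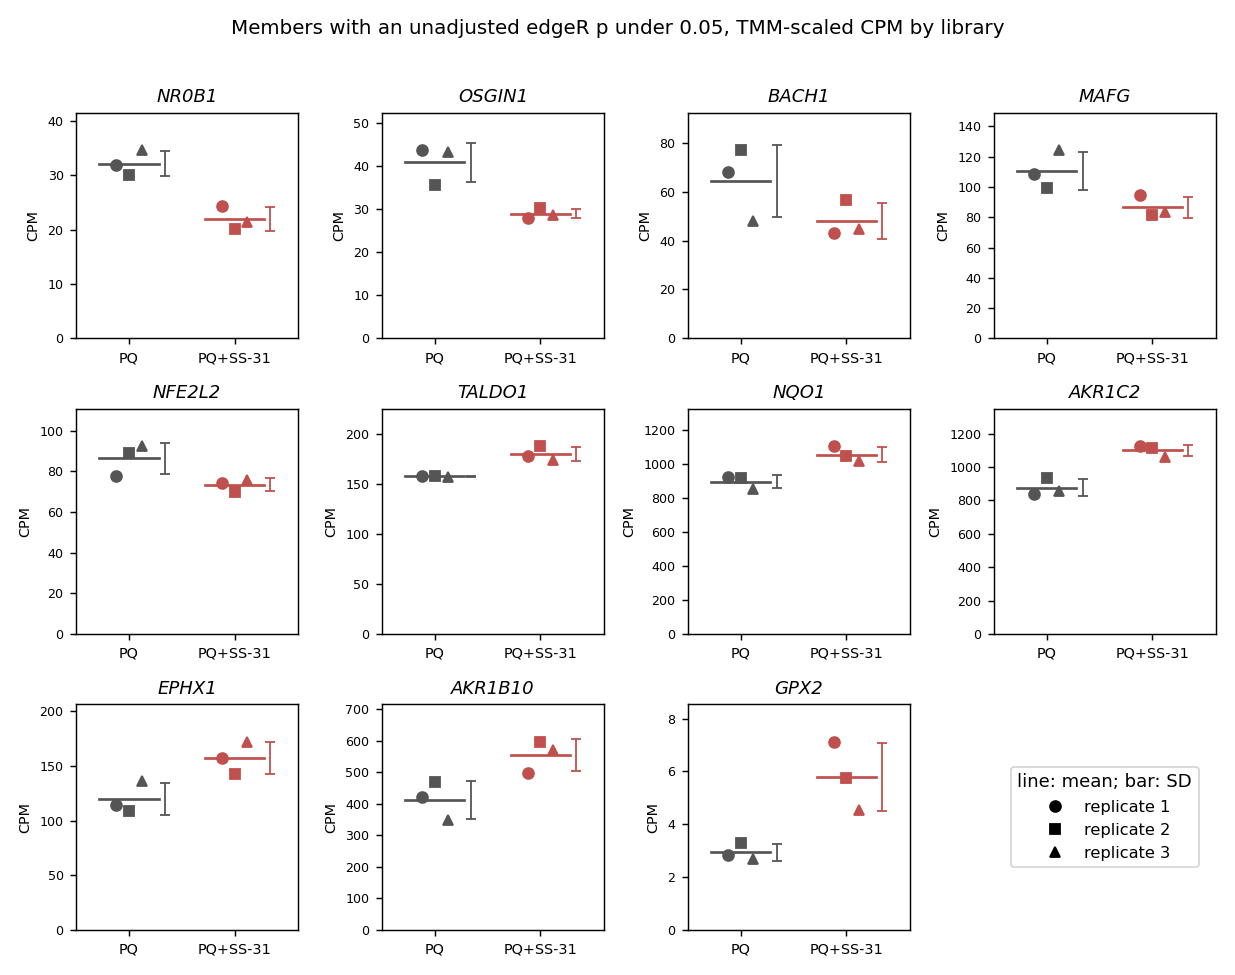
TMM-scaled CPM in each library of the 11 members with an unadjusted edgeR p under 0.05, with a line for the mean of 3 libraries and a bar for the SD; each panel has its own axis from 0. BACH1 is the only one of the 11 whose groups overlap.

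The NADPH-supplying genes differed by similar small amounts. PGD, 6-phosphogluconate dehydrogenase of the pentose phosphate pathway, was at 833, 831 and 778 CPM with PQ and 858, 968 and 1007 CPM with PQ+SS-31. TKT, transketolase, stood at 966, 994 and 891 and 1002, 1144 and 1192 CPM, and TALDO1, transaldolase, at 157, 158 and 157 and 178, 187 and 174 CPM. In all 3 pentose phosphate genes every PQ+SS-31 library lay above every PQ library, with log2 fold changes of 0.21, 0.23 and 0.19 and edgeR adjusted p = 0.456, 0.449 and 0.401. ME1, cytosolic malic enzyme, followed at 94.4, 93.9 and 89.1 CPM with PQ and 98.1, 104 and 109.8 CPM with PQ+SS-31 (log2 fold change 0.17 ± 0.083, edgeR adjusted p = 0.492). IDH1, the cytosolic isocitrate dehydrogenase that also yields NADPH, went the other way at 187, 200.3 and 192 CPM and 184, 168 and 175 CPM, where all PQ+SS-31 libraries lay below all PQ libraries (log2 fold change -0.14 ± 0.083, edgeR adjusted p = 0.599). None of the 5 overlapped between groups, with 4 higher and 1 lower, yet each had an edgeR adjusted p of at least 0.401. Of all tested genes 9.16% were higher and 8.86% lower without overlap.

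Glutathione genes showed little difference except at low abundance. SLC7A11, the cystine importer xCT, was counted at 338, 377 and 256 CPM with PQ and 316, 376 and 312 CPM with PQ+SS-31. PQ replicate 3 was the lowest of the 6, and as for BACH1 the 3 libraries that the first principal component set apart were the 3 lowest. GCLC, the catalytic subunit of glutamate-cysteine ligase, the rate-limiting enzyme of glutathione synthesis, was at 96.7, 93.8 and 92.0 CPM and 95.5, 98.3 and 89.0 CPM, with a 95% interval of the log2 difference of -0.18 to 0.18. GCLM, its modifier subunit, was at 145, 152 and 139 CPM with PQ and 137, 137 and 135 CPM with PQ+SS-31, where the groups did not overlap but differed by only -0.093 ± 0.08 on the log2 scale (edgeR adjusted p = 0.745). GSR, which regenerates glutathione with NADPH, had a log2 fold change of 0.12 ± 0.087 with overlapping groups. GPX2, a glutathione peroxidase best known from gut epithelium, had the largest value of all members. It was at 2.85, 3.29 and 2.68 CPM with PQ and 7.12, 5.76 and 4.54 CPM with PQ+SS-31, from 46 to 123 reads per library. The groups did not overlap (log2 fold change 0.98 ± 0.22, edgeR adjusted p = 0.114, DESeq2 adjusted p = 0.0203, over all alternatives 0.00754 to 0.443).

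In the thioredoxin group, TXNRD1, the cytosolic thioredoxin reductase, was counted at 1767, 1818 and 1671 CPM with PQ and 1685, 1701 and 1666 CPM with PQ+SS-31. The groups overlapped, and the 95% interval of the log2 difference was -0.26 to 0.15. Its substrate TXN, the peroxiredoxin PRDX1 and SRXN1, the sulfiredoxin that repairs overoxidised peroxiredoxins, overlapped between groups as well, with log2 fold changes of 0.074, 0.19 and 0.047. None of the 4 reached an unadjusted p under 0.05. Summed over the group, 2288 ± 36.2 CPM with PQ stood against 2271 ± 75.6 CPM with PQ+SS-31, which overlapped.

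Conjugation and export genes were mostly within the spread of the replicates. EPHX1, microsomal epoxide hydrolase, was the exception, at 114, 109 and 136 CPM with PQ and 157, 142 and 172 CPM with PQ+SS-31 (chromosome 1, 225810092 to 225845563, plus strand). The lowest PQ+SS-31 library lay just above the highest PQ library, PQ replicate 3 (log2 fold change 0.39 ± 0.11, edgeR adjusted p = 0.205). Without PQ replicate 3 the log2 fold change was 0.49 and passed (edgeR adjusted p = 0.0326, over all alternatives 0.0326 to 0.617). UGDH, which makes the UDP-glucuronate used in glucuronidation, was at 293, 287 and 292 CPM and 318, 297 and 312 CPM, not overlapping but apart by only 0.088 ± 0.082 on the log2 scale (edgeR adjusted p = 0.770). The exporters of conjugates ABCC1, ABCC2 and ABCC3 had log2 fold changes of 0.08, -0.072 and 0.16, and the glutathione transferases GSTM3 and GSTM4 had -0.096 and 0.22, all with overlapping groups.

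Added up, the 38 members took 1.30%, 1.28% and 1.35% of all counts in the PQ replicates and 1.51%, 1.37% and 1.39% in the PQ+SS-31 replicates. In TMM-scaled CPM the sums were 13104 ± 269 with PQ and 14304 ± 146 with SS-31 added (SD, n = 3). No PQ+SS-31 library lay as low as a PQ library on either scale. The sum is carried by a few abundant genes, with AKR1B1 and TXNRD1 the largest, and no test was made of it. Beside this difference, the summed level of the 6 lung epithelial markers was 3921 ± 143 CPM with PQ and 4919 ± 282 CPM with PQ+SS-31, with ranges of 3756 to 4005 and 4594 to 5083 CPM. This sum is carried by KRT7, KRT8 and KRT18. Of the 6, 5 had positive log2 fold changes, while KRT19 had -0.23 (edgeR adjusted p = 0.558). By edgeR 1 of the 6, CDH1, rose (edgeR adjusted p = 0.0389), where 0.129% of all tested genes were higher. CDH1 stood at a mean of only 13.6 CPM with PQ and 24.4 CPM with PQ+SS-31. Of the refits without 1 library, CDH1 passed only in that without PQ replicate 3, with an edgeR adjusted p of 0.109 to 0.229 in the other 5. DESeq2 called 3 of the 6 higher, KRT8, KRT18 and CDH1, where it called 0.791% of all tested genes higher. The part of these markers in the members' sum was not tested. Counts are relative to each library's total, so a lower share of other transcripts and a higher level of these genes cannot be told apart.

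**Figure D4:**
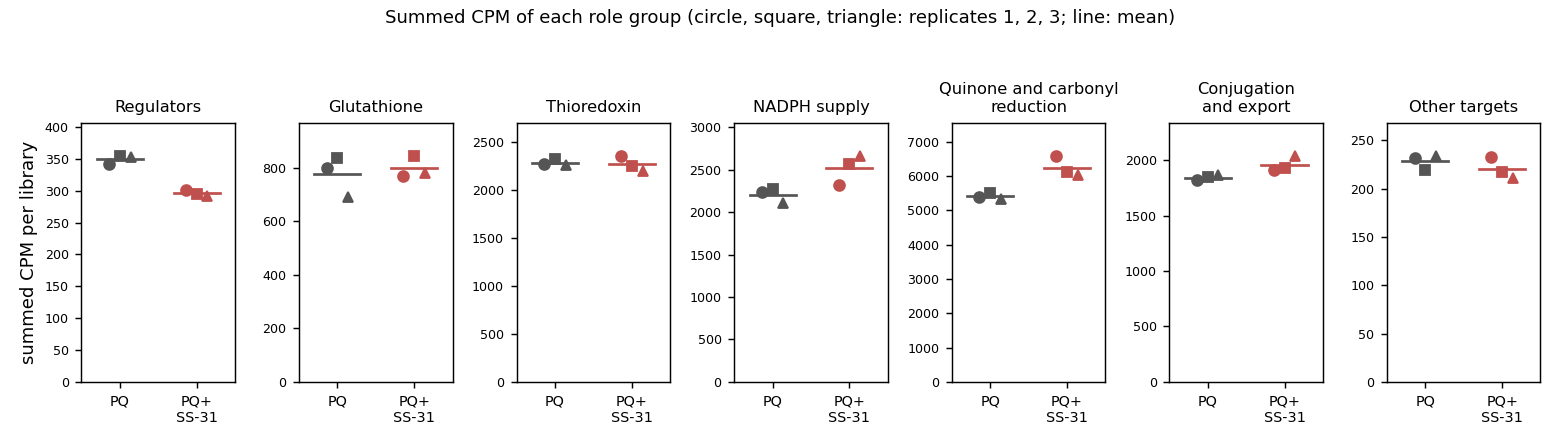
Summed TMM-scaled CPM of the members of each role group in each library, with replicates 1, 2 and 3 as circle, square and triangle and a line at the group mean; each panel has its own axis from 0. Quinone and carbonyl reduction, NADPH supply and conjugation and export stood higher with PQ+SS-31 in every library, regulators lower, and the other 3 role groups overlapped. These sums were not tested.

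Other genes of the pathway were compared in the same fit. Their lists were chosen by role, with earlier results of these data known. The shares below therefore describe the lists and are no test of them. At the adjusted threshold that fit called 0.129% of all tested genes higher and 0.463% lower. Of 16 tested partners and regulators of NRF2, 0 rose and 1 fell. The one that fell was SQSTM1, the autophagy receptor p62, which binds KEAP1, at 1387, 1302 and 1362 CPM with PQ and 750.1, 743 and 725 CPM with PQ+SS-31 (log2 fold change -0.87 ± 0.087, edgeR adjusted p = 0.00724). Of the refits without 1 library SQSTM1 passed without PQ replicate 2 or 3, and not without PQ replicate 1 or any 1 of the PQ+SS-31 libraries (edgeR adjusted p = 0.0523 to 0.146), with log2 fold changes of -0.89 to -0.85 over all 6. MAFF, another small MAF protein, was at 27.3, 26.6 and 29.1 and 21.1, 20.0 and 18.5 CPM without overlap and did not pass (log2 fold change -0.48 ± 0.1, edgeR adjusted p = 0.0965, DESeq2 adjusted p = 0.0186, over all alternatives 0.0186 to 0.376). Of 22 tested other NRF2 targets, 1 rose and 0 fell. The aldehyde dehydrogenase ALDH3A1 was the one that rose (log2 fold change 0.62 ± 0.094, edgeR adjusted p = 0.0312), and the carboxylesterase CES1, at 13.8, 12.6 and 13.2 and 19.8, 18.5 and 20.8 CPM, did not pass (edgeR adjusted p = 0.0660, DESeq2 adjusted p = 0.00702, over all alternatives 0.00702 to 0.329). Without 1 library, ALDH3A1 passed only in the refit without PQ replicate 3, and edgeR adjusted p was 0.109 to 0.247 in the other 5. DESeq2 called 3 of the 22 higher, ALDH3A1, CES1 and the aldehyde dehydrogenase ALDH1A1 (DESeq2 adjusted p = 0.00160 for ALDH1A1). Over all tested genes it called 0.791% higher and 1.33% lower. At an unadjusted edgeR p under 0.05, 6 of the 22 were higher (27.3%) and 1 lower (4.55%), against 5.62% and 5.94% of all tested genes. Of the 16 partners and regulators, 0 were higher and 3 lower (18.8%) by that p. The iron-linked targets HMOX1, FTL and FTH1, named after their values were seen, had negative log2 fold changes of -0.3, -0.17 and -0.15. None passed in the main edgeR fit. HMOX1 passed with the offsets for GC content and transcript length (edgeR adjusted p = 0.0483, over all alternatives 0.0483 to 0.670). The haem-linked BLVRA, BLVRB, ABCB6 and FECH of the same list had positive values of 0.22, 0.080, 0.084 and 0.0054. Of these, BLVRB, ABCB6 and FECH each turned negative in at least 1 refit without 1 library, so their signs are not settled. HMOX1, FTL and FTH1 were lower and BLVRA higher without overlap between groups. Of all tested genes 8.86% were lower and 9.16% higher without overlap.

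The remaining enzymes of each branch added 1 call. Of 10 tested other thioredoxin-system genes, 0 rose and 1 fell. It was SESN2, a sestrin induced by stress, at 75.3, 75.9 and 70.0 CPM with PQ and 49.6, 51.5 and 54.4 CPM with PQ+SS-31 (log2 fold change -0.51 ± 0.084, edgeR adjusted p = 0.0414). SESN2, too, passed without PQ replicate 3 and in no other refit without 1 library (edgeR adjusted p = 0.149 to 0.287 in those 5). TXNRD3, a thioredoxin-glutathione reductase, had a log2 fold change of 0.58 ± 0.14 (edgeR adjusted p = 0.133). By edgeR 0 of 14 other glutathione genes passed. At an unadjusted p under 0.05, 2 were higher (GGT5 and GPX8) and 0 lower, where 5.62% of all tested genes were higher and 5.94% lower. In the NADPH list, 0 of 14 passed, and by the unadjusted p 2 were higher, among them MTHFD1, a folate enzyme, and 0 lower. Of 7 other carbonyl reductases 0 passed and 1, DCXR, was higher at an unadjusted p under 0.05. DESeq2 called 0 in the glutathione, NADPH and carbonyl lists, SESN2 in the thioredoxin list, and SQSTM1 and MAFF among the partners. In these lists limma-voom called SQSTM1, ALDH3A1 and SESN2.

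Promoter sequences were searched for the core of the antioxidant response element, because it is the site through which NRF2 reaches its targets and because members differed in direction. The motif was TGACNNNGC on either strand, in the window from 250 bases before to 50 bases after the RefSeq start of each gene (GRCh38.p14), which was found for 30 of the 38 members. It overlaps the AP-1 motif TGACTCA where its open bases read TCA. Of the 30 windows 7 held it (23.3%), with 9 matches, against 13.3% of all 35116 promoter windows of the same length. This difference was not tested. The 9 matches follow with 15 bases on each side, on the strand on which the motif reads in this direction, with the motif in capitals.
GCLM at chr1:93909441-93909479, plus strand: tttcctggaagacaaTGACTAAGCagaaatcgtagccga
GPX2 at chr14:64942844-64942882, plus strand: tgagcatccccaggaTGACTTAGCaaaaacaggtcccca
TXNRD1 at chr12:104215665-104215703, plus strand: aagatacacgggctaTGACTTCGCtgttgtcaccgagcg
TXNRD1 at chr12:104215756-104215794, minus strand: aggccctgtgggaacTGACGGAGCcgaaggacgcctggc
PGD at chr1:10398848-10398886, minus strand: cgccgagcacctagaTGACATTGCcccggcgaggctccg
ME1 at chr6:83431165-83431203, minus strand: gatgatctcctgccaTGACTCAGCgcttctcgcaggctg
ME1 at chr6:83431017-83431055, plus strand: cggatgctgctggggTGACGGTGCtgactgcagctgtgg
CBR1 at chr21:36069850-36069888, minus strand: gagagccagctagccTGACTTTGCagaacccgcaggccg
PIR at chrX:15493284-15493322, plus strand: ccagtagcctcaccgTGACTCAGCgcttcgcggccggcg
The first ME1 match and the PIR match also hold TGACTCA. Of the 7 genes, 5 had positive and 2, GCLM and TXNRD1, negative log2 fold changes in the comparison, and GPX2 alone had an unadjusted p under 0.05. The windows of NR0B1, OSGIN1, MAFG, NFE2L2, BACH1, NQO1, AKR1C2, EPHX1 and TALDO1, the other members under that p with a window, did not hold TGACNNNGC, which says nothing about sites elsewhere. A match is a description of the reference sequence, and binding was not measured.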

How the data were processed

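The deposited values are raw counts per gene in 6 libraries, as whole numbers. Per the submitters' processing notes the tools were DESeq2 1.20.0, featureCounts 1.5.0-p3, HISAT2 2.0.5 and CASAVA. A mouse build, mm10, is named there, yet each of the 58735 gene IDs is human and matches GENCODE 29 (GRCh38) in chromosome, start, end and strand. Library kit, strand setting and multi-overlap setting are not given in the sources used here. Columns were assigned by group letter and replicate number, and 0 were left out. The deposited gene length is in bases.

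Genes were filtered with filterByExpr (15550 kept), scaled with TMM and compared, PQ+SS-31 against PQ, with edgeR 4.0.16 quasi-likelihood (R 4.3.3), Benjamini-Hochberg adjusted over all tested genes at 0.05. CPM are TMM-scaled, and SE and 95% intervals come from the test statistic. The steps were tested on simulated data. No libraries were duplicates: within a group the chi-square per degree of freedom was 7.337 to 35.62. Members, lists and tests were chosen with earlier results of these data known. Values by library are given for members with an unadjusted p under 0.05 or non-overlapping groups, and for 9 fixed members (NFE2L2, KEAP1, BACH1, MAFG, NQO1, GCLC, GCLM, SLC7A11, TXNRD1). From other lists, genes past the threshold and at most 2 with the smallest p are named, and 1 gene that this rule names is not reported here. Alternatives were other scalings and filters, DESeq2 1.42.0, protein-coding genes alone, limma-voom (limma 3.58.1), the replicate number as a block, leaving out each library and, chosen after seeing the data, offsets per library by loess (span 0.5) on transcript length and GC content, and a fit without mitochondrial genes.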

Additional observations from a re-analysis of the deposited data

How the results depend on the processing

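The 0 members called in each direction by edgeR stayed 0 and 0 with RLE factors, library size alone, a filter of 1 CPM in 3 libraries, limma-voom, protein-coding genes alone and without mitochondrial genes. Members called were 2 higher and 3 lower of 38 with no filter, where 156 and 237 of 30286 tested genes were called. DESeq2 called 2 and 2 members, and 123 and 207 of 15550 tested genes. The replicate block gave 0 and 1 (NR0B1), and 66 and 134 of 15550. Offsets for GC content and transcript length gave 0 and 2 (OSGIN1, NR0B1), and 71 and 152 of 15541. The 5 with no filter were GPX2, AKR1B10, BACH1, OSGIN1 and NR0B1. Without 1 library, the calls were 0 to 1 higher and 0 to 1 lower. EPHX1 and BACH1 were called without PQ replicate 3, where 125 and 203 of 15828 tested genes were called. The members' median log2 fold change was 0.0925 with no filter, 0.0882 to 0.121 without 1 library, and positive in all alternatives. No called value of a member changed sign.

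Over all genes, edgeR called 20 higher and 72 lower. The counts were 156 and 237 with no filter, 123 and 207 with DESeq2, 66 and 134 with the replicate block, and 71 and 152 with the offsets. With library size alone 13 were higher, and with protein-coding genes alone 36. Without 1 library they ranged from 0 to 125 higher and 0 to 203 lower, the highest in both directions without PQ replicate 3, and refits have fewer libraries. The cause of these moves was not tested. Whether libraries with the same replicate number belong together is not stated. The correlations of their deviations from the group means were -0.0923, 0.392 and 0.191, and not every library correlated best with its own number. With 3 libraries per group these correlations cannot settle whether the libraries were paired.

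Depth limits GPX2, CBR3, GSTM3 and GSTM4, the least abundant tested members, and UGT1A6, with 5 reads in all, could not be assessed.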
